A study of Mus musculus with 295 samples.

Results

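The Hox genes are homeobox transcription factors that lie in 4 clusters, HoxA to HoxD, and 29 of them were measured in the adipose tissue of an F2 cross of mice. Members were taken by their symbol in the array's annotation, and each had 1 probe, so the 29 genes were read by 29 of the 22894 probes analysed. RefSeq lists 39 genes of these clusters, and the other 10 were not analysed here. The members comprised 6 genes of cluster A on chromosome 6, 7 of cluster B on chromosome 11, 8 of cluster C on chromosome 15 and 8 of cluster D on chromosome 2. By paralog group (the number in the symbol), 8 were anterior (groups 1 to 4), 7 central (5 to 8) and 14 posterior (9 to 13).

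Within a cluster the order of the genes along the chromosome matches the order of the body regions in which they are switched on in the embryo, from the hindbrain to the tail and, for the posterior HoxA and HoxD genes, along the limbs and the genital tract. The proteins bind DNA together with cofactors of the Pbx and Meis families, and the position code they set up is kept in adult connective tissue. Fat depots of different body regions are known to differ in which Hox genes they express. Hoxa10 and Hoxa11 are best known for patterning the uterus, the male reproductive tract and the limbs.

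Each of the 295 mice was an F2 animal from C57BL/6J and C3H/HeJ parents, both ApoE null (lacking apolipoprotein E), fed a Western diet from week 8 to week 24. RNA of each mouse was set on 1 array of 2 colours against a pool of RNA from the cross, so every value is the log2 ratio of a mouse to that pool, and differences are in log2 units. No source used here states the scale or the direction: the deposited values were read as log10 of mouse over pool, and every fold below rests on that reading. Read as log2, the 57.8-fold span of Hoxa11 given below would be 3.39-fold. All mice form 1 group. The labels name neither the fat depot nor the sex of single mice, and each mouse had a single array, so differences among mice include measurement error.

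The ratios tell nothing of absolute levels, so the tissue could not be checked by the level of its markers, only by their spread. Of the 295 arrays, 247 had the epididymis transcript Gpx5 at or below -0.5 on the deposited scale and were analysed. Gpx5 lay above that limit on 47 and had no value on 1. The 247 fell apart at the Y-linked gene Eif2s3y, which lay between -6.51 and -4.16 on 142 arrays (called Eif2s3y-low below) and between -0.10 and 1.77 on 105 (Eif2s3y-high). These are splits by measured values and not groups of the study. They are therefore described by their values with no test between them, and correlations are given within each. Ucp1, the heat-producing gene of brown fat, differed between the sets as well, with medians of 0.28 and -3.14. On the 47 arrays with Gpx5 above the limit, Eif2s3y lay between 0.17 and 1.66, inside the range of the Eif2s3y-high set. The limit on Gpx5 thus took these arrays from that side of Eif2s3y only, and the Eif2s3y-high set is what remained there.

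The sequences of the genes that the results turn on are given first. Promoters of 16 of the 29 genes were found in RefSeq's promoter table of GRCm38.p6, 18 in all. Only the 250 bases before each start were used. Hoxa10 and Hoxa11 are shown because they were the most variable members and varied together. Both lie on the minus strand, at chr6:52234940-52235189 and chr6:52240855-52241104 for the Hoxa10 starts and at chr6:52245811-52246060 for Hoxa11. They are written 5′ to 3′, with capitals for matches to 4 motifs searched on both strands. The motifs were the TATA box TATAAA, the GC box GGGCGG, the Pbx-Hox motif TGATNNAT (N is any base) and the nuclear receptor half-site AGGTCA.
Hoxa10, start nearer Hoxa9: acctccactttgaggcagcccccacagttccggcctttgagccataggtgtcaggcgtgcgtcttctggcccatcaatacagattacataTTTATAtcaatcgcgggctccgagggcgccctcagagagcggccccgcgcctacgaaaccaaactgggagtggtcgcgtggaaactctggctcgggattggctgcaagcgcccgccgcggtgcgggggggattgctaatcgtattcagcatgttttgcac
Hoxa10, start nearer Hoxa11: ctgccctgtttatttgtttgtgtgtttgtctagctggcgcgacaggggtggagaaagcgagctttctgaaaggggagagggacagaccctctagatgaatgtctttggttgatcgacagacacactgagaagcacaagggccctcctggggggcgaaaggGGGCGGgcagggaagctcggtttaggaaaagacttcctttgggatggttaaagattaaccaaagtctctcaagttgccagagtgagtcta
Hoxa11: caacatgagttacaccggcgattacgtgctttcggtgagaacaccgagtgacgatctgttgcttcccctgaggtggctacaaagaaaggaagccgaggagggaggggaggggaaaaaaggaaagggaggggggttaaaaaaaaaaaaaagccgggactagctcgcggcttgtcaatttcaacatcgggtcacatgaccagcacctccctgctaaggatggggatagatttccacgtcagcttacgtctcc

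The 3 measured genes of paralog group 4 are shown because they were correlated with one another across clusters. They lie on the plus strand, Hoxb4 at chr11:96318017-96318266, Hoxc4 at chr15:103034145-103034394 and Hoxd4 at chr2:74721728-74721977.
Hoxb4: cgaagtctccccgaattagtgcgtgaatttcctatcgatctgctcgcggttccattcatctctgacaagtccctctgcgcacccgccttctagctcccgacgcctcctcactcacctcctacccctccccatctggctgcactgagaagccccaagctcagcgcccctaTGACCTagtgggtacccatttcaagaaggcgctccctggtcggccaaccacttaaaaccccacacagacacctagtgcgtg
Hoxc4: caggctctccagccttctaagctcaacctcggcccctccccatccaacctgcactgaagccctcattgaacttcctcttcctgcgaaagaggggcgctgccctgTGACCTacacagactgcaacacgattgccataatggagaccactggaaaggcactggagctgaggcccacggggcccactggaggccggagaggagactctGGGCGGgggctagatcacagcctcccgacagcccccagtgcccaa
Hoxd4: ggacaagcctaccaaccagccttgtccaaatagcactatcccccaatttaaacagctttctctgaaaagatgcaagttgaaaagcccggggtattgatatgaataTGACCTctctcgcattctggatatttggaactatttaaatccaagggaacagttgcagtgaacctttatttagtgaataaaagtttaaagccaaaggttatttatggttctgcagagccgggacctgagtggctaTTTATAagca

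The half-site AGGTCA, which in pairs is bound by nuclear receptors such as the retinoic acid receptors, was read on the opposite strand (TGACCT) once in each of the 3 group 4 promoters. It was in 5 of the 18 Hox promoters and in 14% of all 32851 promoters of this length. A TATA box was found before Hoxd4 and before the Hoxa10 start nearer Hoxa9, in 3 of the 18 Hox promoters and in 12.4% of all. GC boxes were found before Hoxc4 and the other Hoxa10 start, in 7 of the 18 and in 32.7% of all. The Pbx-Hox motif was in 2 of the 18, none of them printed here, and in 7.68% of all. The Hoxa11 window held none of the 4. These are matches of letters in a window and were not tested as sites.

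Levels of the Hox genes varied more from mouse to mouse than those of most probes. Their median SD over the 247 arrays was 0.42, against 0.28 for all probes, and 23 of the 29 had an SD above that median. Of the 29, 7 lay in the top 10% of probes by SD: Hoxa11, Hoxa10, Hoxc10, Hoxc11, Hoxc4, Hoxc8 and Hoxd4. Median SDs of the anterior, central and posterior members were alike, at 0.44, 0.42 and 0.43.

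Hoxa11 had the highest SD of the members, 2.10 ± 0.09 (SE, n = 247), and was the 13th most variable probe of all. The central 90% of mice spanned 57.8-fold. Its neighbour Hoxa10 followed with an SD of 1.42 and a span of 17.0-fold. Both are posterior genes of cluster A. Hoxc10, a posterior gene of cluster C, spanned 5.80-fold and Hoxc4, an anterior gene of the same cluster, 4.24-fold. These values pool the Eif2s3y sets, and the order differs within them. Hoxa11 had the highest SD of the members in both (0.87 in Eif2s3y-low and 1.40 in Eif2s3y-high arrays). Hoxc10 had SDs of 0.43 and 0.39 within the sets, below those of Hoxc4 (0.65 and 0.58), Hoxc8 (0.51 and 0.65) and Hoxc11 (0.76 and 0.54). Over all analysed arrays Hoxd13, Hoxb7 and Hoxc13 had the lowest SDs, 0.15, 0.16 and 0.18, and Hoxd13 spanned 1.38-fold. Hoxc11 reached the limit of the deposited scale, 6.64, on 1 Eif2s3y-low array, so its level there is a lower bound.

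**Figure D1:**
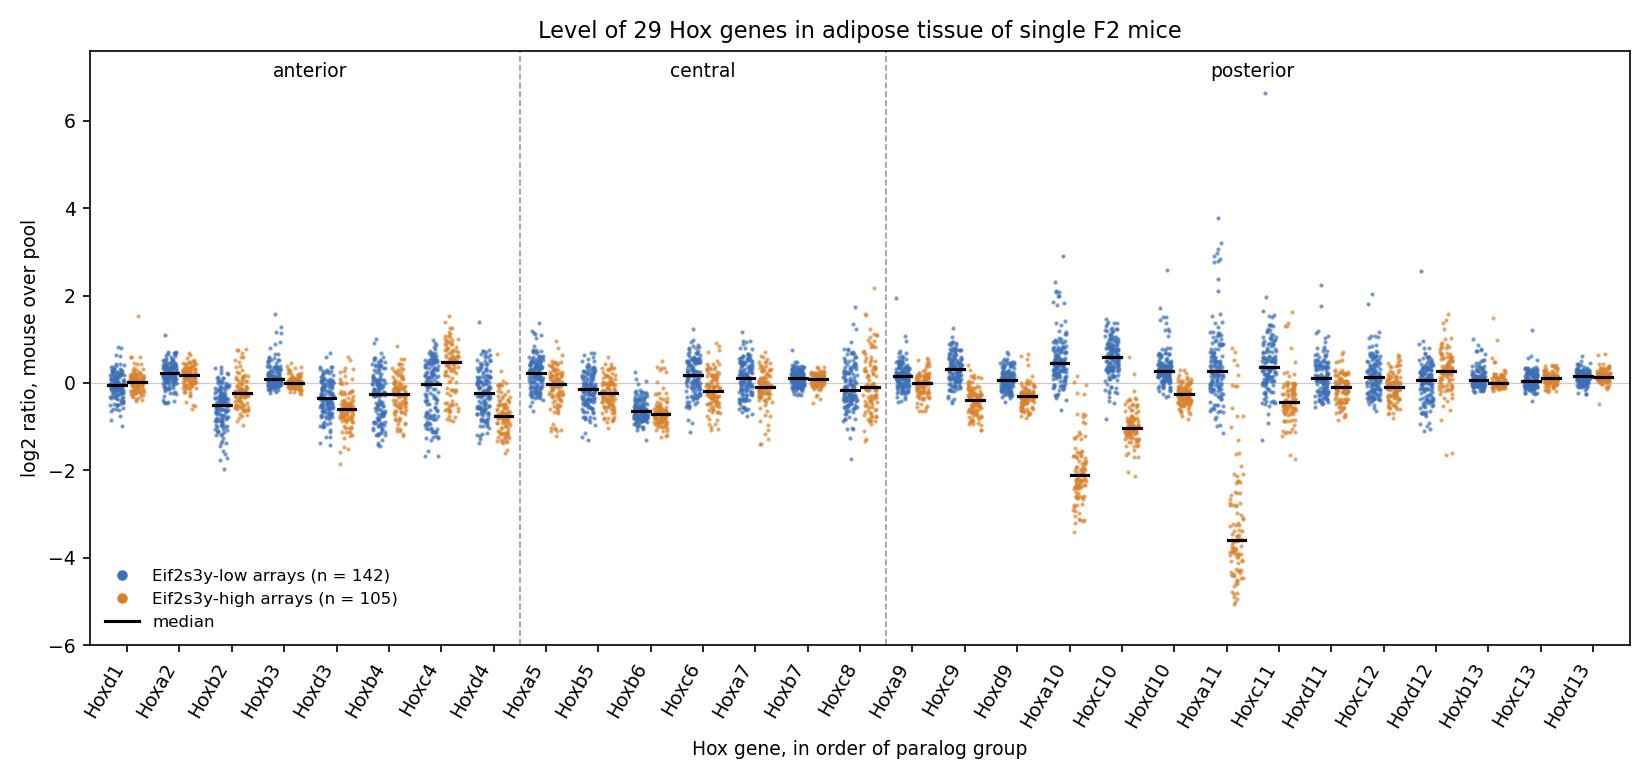
Level of each of the 29 Hox genes (log2 ratio of mouse to pool) in every analysed array, by paralog group, for 142 Eif2s3y-low arrays (blue) and 105 Eif2s3y-high arrays (orange), with medians as black bars. The medians of the sets are at least 1 log2 unit apart at Hoxa10, Hoxa11 and Hoxc10, and the sets overlap at every member.

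The members that differed most between the sets of arrays were posterior. Hoxa11 ran from -1.15 through a median of 0.27 to 3.77 on Eif2s3y-low arrays. On Eif2s3y-high arrays it ran from -5.07 through -3.59 to 0.79. The medians differed 14.5-fold, and 12 of the 105 Eif2s3y-high arrays reached the lowest Eif2s3y-low value.

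Hoxa10 ran from -0.62 through 0.45 to 2.90 on Eif2s3y-low arrays and from -3.41 through -2.10 to 0.16 on Eif2s3y-high arrays. Its medians differed 5.86-fold and the sets overlapped at 5 Eif2s3y-high arrays. Hoxc10 ran from -0.82 through 0.60 to 1.46 and from -2.13 through -1.02 to 0.59, a 3.08-fold difference of medians with 28 Eif2s3y-high arrays in the overlap. The highest Hoxa10 (0.16) and the highest Hoxc10 (0.59) of the Eif2s3y-high set came from the same array, that of mouse 310. The 3 genes were the members whose medians differed by at least 1 log2 unit with the Eif2s3y-low set higher, as did 0.428% of all probes. No member was higher by that much on Eif2s3y-high arrays, where 0.485% of probes were.

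Smaller differences ran mostly the same way. The Eif2s3y-low median was the higher one in 22 of the 29 members and in 12 of the 14 posterior ones, as it was in 50.6% of all probes. Among these were Hoxc9 (0.33 against -0.40), Hoxc11 (0.36 against -0.44), Hoxd10 (0.28 against -0.25) and Hoxd9 (0.07 against -0.31), all posterior. Hoxd4 did so among the anterior genes, with medians of -0.22 and -0.76. Hoxc4 ran the other way, with a median of -0.03 on Eif2s3y-low and 0.47 on Eif2s3y-high arrays, as did Hoxb2 (-0.50 and -0.22) and Hoxd12 (0.07 and 0.28). In bulk tissue, fewer cells of a type and less RNA per cell cannot be told apart.

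Other Hox genes were high on the 47 arrays with Gpx5 above the limit, which were left out of the rest. By Eif2s3y all 47 lay with the Eif2s3y-high set, as given above. Hoxb6 had a median of 1.57 there against -0.64 and -0.71 in the Eif2s3y-low and Eif2s3y-high sets. The lowest of the 47 values, 0.54, lay just above the highest of the analysed arrays, 0.51. How many probes separate in this way was not counted. Medians there were 1.46 for Hoxd3, 1.33 for Hoxb2, 1.07 for Hoxd4, 0.82 for Hoxd9, 0.74 for Hoxb5 and 0.68 for Hoxd1. Hoxa11 had a median of -2.39 there, between those of the sets, and Hoxc10 was as low as on Eif2s3y-high arrays (-1.10). Of the 29 members, 6 had a median at least 1 log2 unit above that of the Eif2s3y-high set, as did 3.65% of all probes. They were Hoxa11, Hoxb2, Hoxb6, Hoxd3, Hoxd4 and Hoxd9. The epididymis list, with 16 of 22 genes measured, had a mean level of 0.81 to 2.32 on these arrays and of -4.80 to -1.11 on the others. The list includes Gpx5, by which these arrays were picked, so the gap follows at least in part from that choice. The part of epididymis transcripts in the Hox levels was not tested.

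Levels of Hox genes were mostly positively correlated with one another. Each member was used in turn as a regressor for all probes in limma, and a call is a Benjamini-Hochberg adjusted p under 0.05 over all probes, so the 29 genes gave 812 tests of 1 member on another. Of these, 447 were called higher and 100 lower, while over all probes the same fits called 29.9% higher and 29.7% lower. In Eif2s3y-low arrays alone, 406 were called higher and 116 lower, against 29.4% and 29.1% of probes. In Eif2s3y-high arrays alone, 260 were called higher and 35 lower, against 13.8% and 13.7%. Called in both sets the same way were 220 tests (27.1%) higher and 10 (1.23%) lower, against 10% and 9.52% of all probes. Another 12 tests were called in both sets but in opposite ways, for which the share of all probes is not given here. The counts below use the rule of calls made the same way in both sets. Tests that share a gene are not independent, and no test was made between kinds of pair.

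The share of pairs that varied together was largest among anterior and central members. Tests called higher in both sets were 24 of 56 (42.9%) among anterior genes, 20 of 42 (47.6%) among central genes and 49 of 112 (43.8%) between anterior and central genes. They were 36 of 182 (19.8%) among posterior genes, 37 of 196 (18.9%) between central and posterior and 54 of 224 (24.1%) between anterior and posterior genes. The share of all probes was not counted for each kind of pair, here or below, and it differed between regressors. Probes called higher in both sets made up 16.8% with Hoxc4, 14.9% with Hoxc8 and 3.37% with Hoxa11. Whether the shares of pairs differ beyond that was not tested. The median r between anterior genes was 0.54 in Eif2s3y-low and 0.22 in Eif2s3y-high arrays, and that between posterior genes 0.06 and 0.03. Only anterior pairs, anterior with posterior pairs and posterior pairs gave any test lower in both sets, with 2, 4 and 4.

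Pairs of measured genes next to each other in a cluster had higher median r than other pairs of the cluster. Among the neighbours, 24 of 50 tests (48%) were called higher in both sets, with median r of 0.37 and 0.28. Among genes of a cluster that are not neighbours it was 29 of 134 (21.6%), with 0.12 and 0.07. Members of the same cluster as a whole gave 53 of 184 (28.8%), near the 167 of 628 (26.6%) of members of different clusters. Cluster A had 11 of 30, cluster B 9 of 42, cluster C 20 of 56 and cluster D 13 of 56. Genes of the same paralog group in different clusters gave 16 of 42 (38.1%) higher and 4 of 42 (9.52%) lower, the latter out of 10 lower calls among all pairs.

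**Figure D2:**
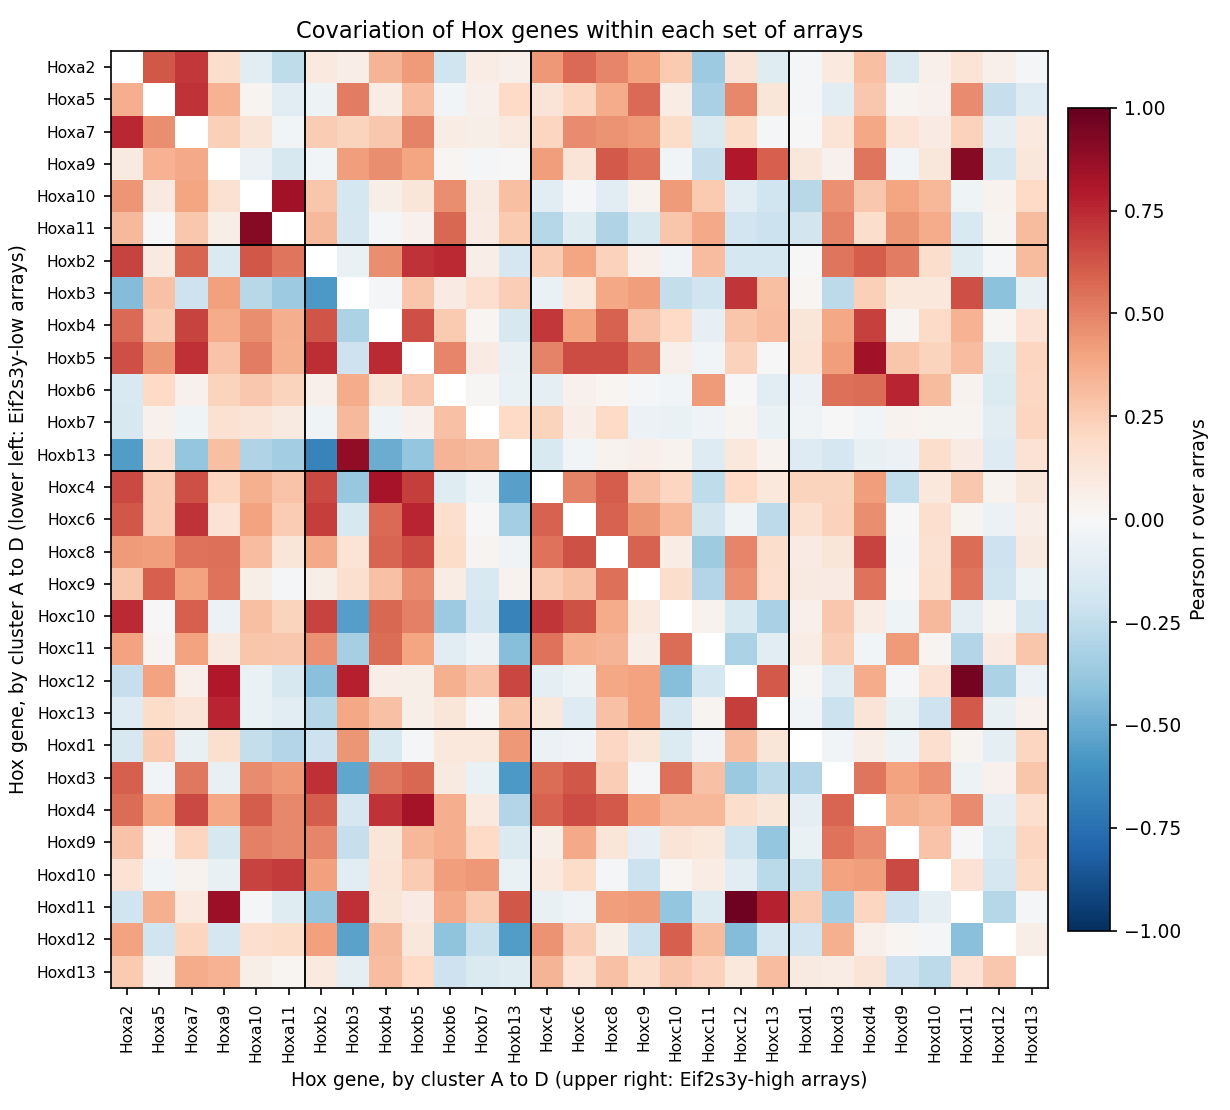
Pearson r over arrays of each pair of Hox genes, ordered by cluster A to D, with 142 Eif2s3y-low arrays below the diagonal and 105 Eif2s3y-high arrays above it. Red is positive and blue negative. Hoxa10 with Hoxa11, Hoxb5 with Hoxd4 and Hoxc12 with Hoxd11 are dark red on both sides.

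The 12 pairs with the largest r that held in both sets were looked at in detail. All 12 had the smallest permutation p that 100000 resamples can give, 1e-05, in each set (two-sided, 406 pairs compared). The pairs were picked by their r in these same arrays, so this p follows from the choice and is no separate evidence. Hoxa10 and Hoxa11 had r = 0.91 (Spearman 0.84, n = 140) in Eif2s3y-low and 0.84 (0.79, n = 104) in Eif2s3y-high arrays. Without the 2 arrays farthest from the median of Hoxa10 the r were 0.89 and 0.82. Filling the gaps with the probe's mean, as the fits did, gave 0.91 and 0.81. Each gene was the only probe with r of at least 0.8 to the other in both sets. In Eif2s3y-high arrays alone Pcp4 (0.87) came closer to Hoxa11 than Hoxa10 did. Actg2 (0.82) lay above the 0.81 of Hoxa10 with filled gaps, but below its 0.84 without filling.

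The highest Hoxa11 levels of each set were looked at apart, with limits chosen after the values were seen. On 10 Eif2s3y-low arrays Hoxa11 lay between 2.10 and 3.77, above the highest of the other 132 (1.57), and Hoxa10 did likewise (1.79 to 2.90, against at most 1.42). On 16 Eif2s3y-high arrays Hoxa11 lay above -2, between -1.91 and 0.79, against at most -2.08 on the other 89. There is no gap at that limit, and Hoxa10 was above its highest value on the other arrays in 3 of the 16. Without these arrays the r of Hoxa10 and Hoxa11 were 0.80 and 0.67. Leaving out arrays by their Hoxa11 level narrows its range, which by itself lowers the r of Hoxa11, so the r without them are given as descriptions with no test.

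Hoxc10 had lower r with Hoxa11, although both were low on Eif2s3y-high arrays. Within the sets their r were 0.22 (permutation p = 0.007) and 0.28 (permutation p = 0.0042). The Spearman values were 0.37 and 0.42, and without the arrays of highest Hoxa11 the r were 0.48 and 0.59. The mouse number is the only label that can stand for an order of processing. In the 83 mice with the lowest, the 82 with middle and the 82 with the highest numbers the r were 0.08, 0.44 and 0.33 in the Eif2s3y-low set and -0.05, 0.29 and 0.48 in the Eif2s3y-high set. Hoxc9 and Hoxc10, neighbours in cluster C, had r of 0.10 and 0.17, and neither passed the permutation test (p = 0.26 and p = 0.076). These pairs were chosen after their values were seen.

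**Figure D3:**
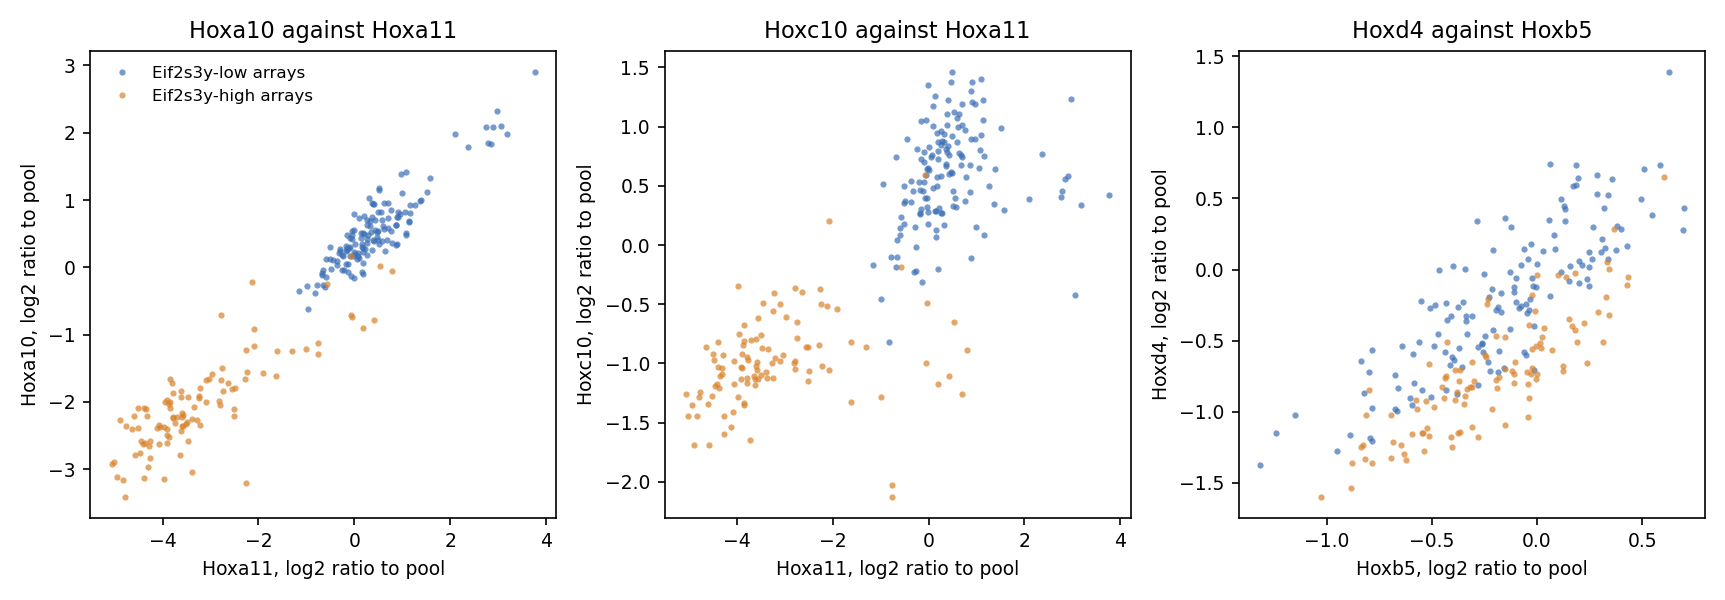
Levels (log2 ratio of mouse to pool) of Hoxa10 and Hoxc10 against Hoxa11, and of Hoxd4 against Hoxb5, with 1 point per array, Eif2s3y-low in blue and Eif2s3y-high in orange. Hoxa10 follows Hoxa11 in both sets (r = 0.91 and 0.84), Hoxc10 forms separate clouds (0.22 and 0.28), and Hoxd4 follows Hoxb5 with no gap between the sets (0.83 and 0.84).

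Hoxb5 and Hoxd4, a central gene of cluster B and an anterior gene of cluster D, had r of 0.83 and 0.84. Hoxb5 was also correlated with Hoxb2 (0.74 and 0.72), Hoxc6 (0.76 and 0.66) and Hoxc8 (0.65 and 0.65). Within the 3 ranges of mouse number, the r of Hoxb5 and Hoxd4 lay between 0.70 and 0.92. The group 4 genes shown above formed a chain, Hoxb4 with Hoxc4 at 0.83 and 0.71 and Hoxb4 with Hoxd4 at 0.73 and 0.68. In cluster A, Hoxa2 and Hoxa7 had r of 0.75 and 0.71. Hoxd4 had the most partners of the 29, with 17 other members called higher in both sets, followed by Hoxb5 with 14 and Hoxc8 with 13. Hoxb7, Hoxb13, Hoxd1 and Hoxd13 had no partner called the same way in both sets, and Hoxd12 had 3 lower and none higher.

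The posterior genes Hoxa9, Hoxc12 and Hoxd11 and the anterior gene Hoxb3 were correlated with one another and with many other probes. Hoxc12 and Hoxd11, posterior genes on different chromosomes, had r of 0.97 and 0.96, the highest of the 406 pairs in both sets. Hoxa9 had 0.86 and 0.91 with Hoxd11 and 0.80 and 0.80 with Hoxc12, and Hoxb3 had 0.78 and 0.72 with Hoxc12. Genes outside the clusters came as close to them. Hoxc12 and Hoxd11 were both nearest to Ldb2, a LIM domain cofactor, at 0.98 in Eif2s3y-low arrays and 0.99 and 0.97 in Eif2s3y-high arrays. Hoxa9 was nearest to Plekhm1 (0.94 and 0.95) and Hoxb3 to Irx6 (0.96 and 0.91), another homeobox gene. Probes with r of at least 0.8 in both sets numbered 209 for Hoxb3, 26 for Hoxa9, 20 for Hoxd11 and 19 for Hoxc12, against 6 for Hoxb5 and 1 for Hoxd4. Hoxb3 and Hoxb13 had r of 0.89 in Eif2s3y-low arrays, where 1848 and 1540 probes followed them that closely. In Eif2s3y-high arrays their r was 0.24 and was not called over all probes (adjusted p = 0.28, limma), with a permutation p of 0.014. The Spearman value there was 0.43 (permutation p = 1e-05), against 0.82 in Eif2s3y-low arrays. This pair was chosen after its values were seen.

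Marker lists of 16 tissues and cell types were then set against the Hox genes, each as the mean z-score of its measured members. Over all 247 arrays, 184 of 464 tests of a member on a score were called higher and 92 lower, against 23.7% and 26.8% of all probes. As above, only calls made the same way in both sets are described one by one.

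The score of macrophages, immune cells that gather in the fat of obese animals, had the most members called. As it rose, 16 of the 29 fell in both sets and none rose, while 12.1% of all probes fell. They were 6 anterior, 6 central and 4 posterior genes. Hoxd4 had r of -0.74 and -0.70 with it (n = 142 and 105), Hoxb5 -0.63 and -0.70, Hoxc6 -0.61 and -0.55, Hoxc8 -0.44 and -0.62, and Hoxb2 -0.51 and -0.57. The list had 19 of 24 genes measured, led in SD by Itgax and Cybb, surface and oxidase genes of these cells. Its mean level ran from -1.70 to 0.55 on Eif2s3y-low and from -1.18 to 0.87 on Eif2s3y-high arrays. The part of macrophage RNA in the Hox levels was not tested.

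The adipocyte score ran the other way. With it 11 members rose in both sets, 5 anterior, 5 central and 1 posterior, and Hoxc13 alone fell, against 15.1% and 11.8% of all probes. Hoxc6, a central gene known from fat of the trunk, had r of 0.65 and 0.80, Hoxc8 0.57 and 0.68, Hoxa2 0.61 and 0.49, Hoxa7 0.52 and 0.41 and Hoxb5 0.50 and 0.62. Of 25 adipocyte genes 14 were measured, led in SD by Cidea and Car3, and the mean level of the list had medians of 0.19 and -0.18 in the sets. The endothelium score, led by Kdr and Cldn5, was followed upward by 9 members, against 12.8% of probes. Hoxb5 had 0.64 and 0.61 with it and Hoxc6 0.60 and 0.68, and all 9 also rose with the adipocyte score. Hoxc11 was called in opposite ways with the endothelium score (0.22 and -0.27).

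With the smooth muscle score 10 members rose in both sets and none fell, against 4.2% of probes. They were 5 posterior, 3 anterior and 2 central genes. Hoxa11 had r of 0.70 and 0.77, Hoxa10 0.60 and 0.59, Hoxd10 0.63 and 0.39, Hoxb2 0.46 and 0.64, Hoxd3 0.39 and 0.61 and Hoxb6 0.21 and 0.76. The list had 8 of 10 genes measured, led in SD by the contractile genes Cnn1 and Actg2, and 4 of the 8 were also in the uterus and oviduct list. Its mean level ran from -1.20 to 2.08, with a median of -0.12, on Eif2s3y-low arrays. On Eif2s3y-high arrays it ran from -2.07 to 1.23, with a median of -1.43. The median was thus higher in the Eif2s3y-low set, as were those of Hoxa10, Hoxa11 and Hoxc10. The part of smooth muscle RNA in the Hox levels was not tested.

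The smooth muscle score was high on the arrays with the highest Hoxa11. On the 10 such Eif2s3y-low arrays it lay between 1.11 and 3.24 (median 1.88, in SD over arrays), against a median of 0.21 on the others. On the 16 such Eif2s3y-high arrays its median was 0.95, against -0.98, and 12 of the 16 lay above the highest of the others. The Spearman values of Hoxa11 with the score over the whole sets were 0.69 and 0.41. Without the arrays of highest Hoxa11 its r was 0.64 and 0.06, and that of Hoxa10 0.45 and 0.19. Hoxb6 had 0.02 in Eif2s3y-low and 0.64 in Eif2s3y-high arrays without them, and Hoxb2 had 0.37 and 0.56.

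The genital tract and epithelial lists gave overlapping sets of genes. With the uterus and oviduct score, led by Cnn1 and Ovgp1, 10 members rose in both sets, against 5.66% of probes. Among them were Hoxd10 with r of 0.79 and 0.52, Hoxa11 with 0.65 and 0.51 and Hoxd4 with 0.52 and 0.71. Of the 13 measured genes of the uterus and oviduct list, 4 are also in the smooth muscle list, Cnn1 among them. Which genes of the list carried these r was not tested. With the epithelium score, led by Cdh1 and Cldn3, 7 rose, against 4.98%, and Hoxa2 fell, against 8.04%. Hoxb6 had 0.51 and 0.79 with it, Hoxa11 0.46 and 0.78 and Hoxd9 0.31 and 0.65. With the mesothelium score, led by the keratins Krt18 and Krt8, 8 members rose, against 4.54%. This list rests on 6 measured genes of 12, and 3 of the 6 are also in another tissue list, as are 3 of the 14 epithelium genes measured. Hoxb6 alone rose with the epididymis score, led by Defb1 and Crisp3, at 0.54 and 0.54, against 1.37%, and it was also the member highest on arrays with Gpx5 above the limit.

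The Spearman values of Hoxa11 were 0.49 and 0.33 with the uterus and oviduct score and 0.28 and 0.66 with the epithelium score. Without the arrays of highest Hoxa11 its r was 0.37 and 0.10 with the first and 0.14 and 0.52 with the second. Hoxd10 had 0.65 and 0.40 with the uterus and oviduct score without them. Hoxd4 with the macrophage score (-0.71 and -0.78) and Hoxc6 with the adipocyte score (0.65 and 0.80) were much the same without them. The levels of the epithelium list ran from -2.62 to 1.47 and from -2.64 to 1.48 in the sets, and its part in the result was not tested.

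**Figure D4:**
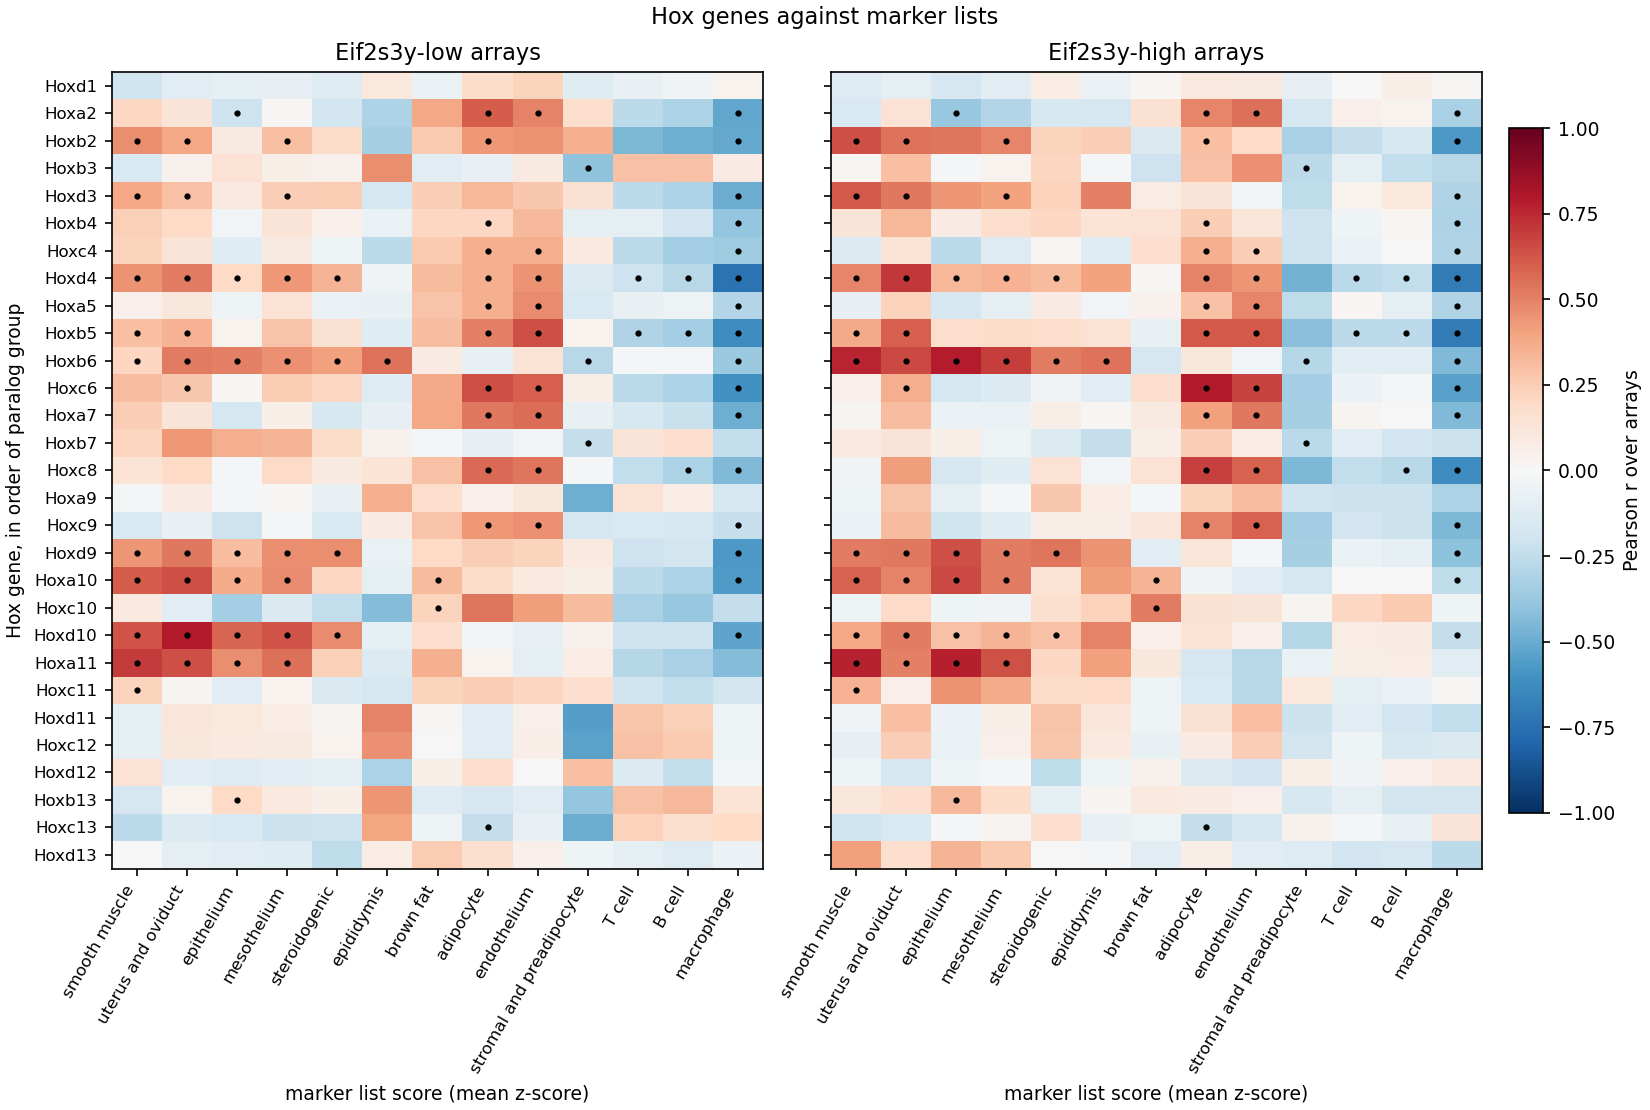
Pearson r of each Hox gene with 13 scores, within 142 Eif2s3y-low and within 105 Eif2s3y-high arrays, red for positive and blue for negative. Dots mark calls made the same way in both sets, which gather in the macrophage column as negative and in the adipocyte and smooth muscle columns as positive.

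**Figure D5:**
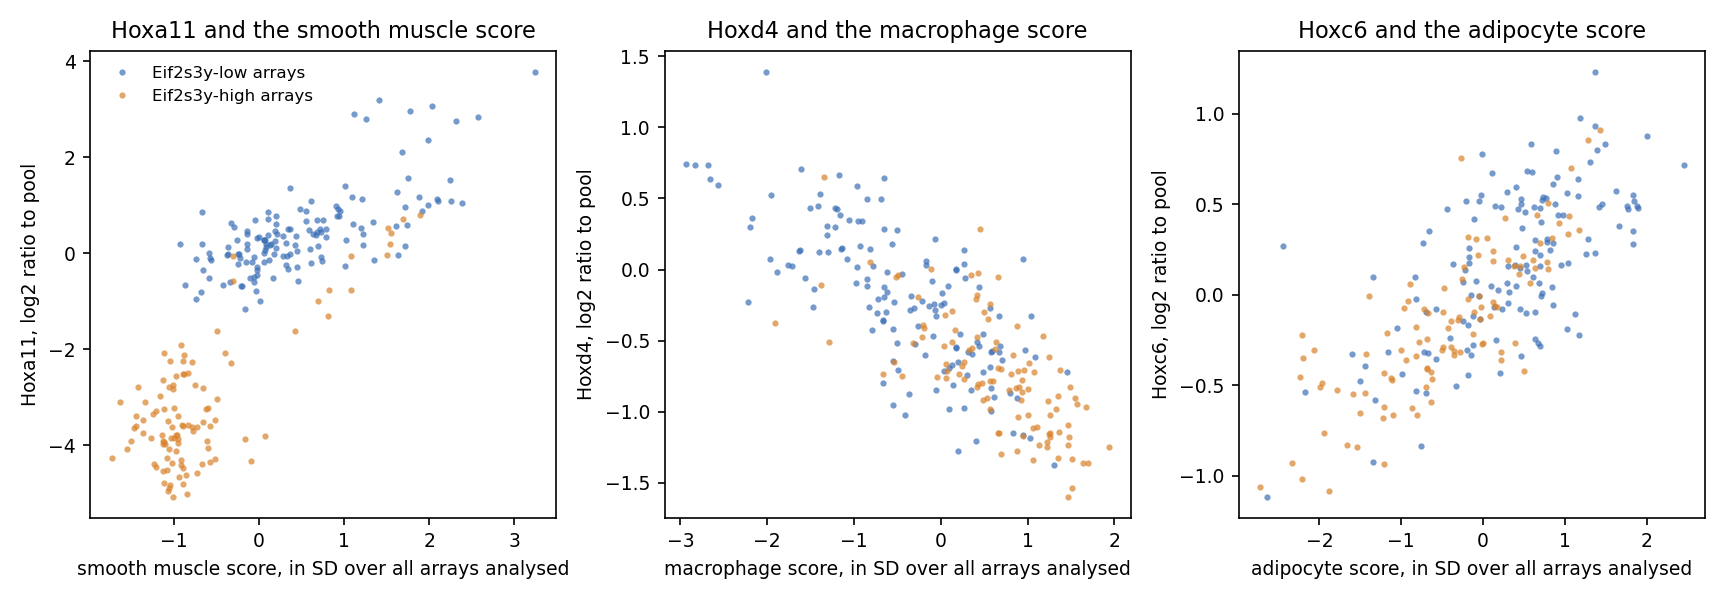
Levels (log2 ratio of mouse to pool) of Hoxa11, Hoxd4 and Hoxc6 against the smooth muscle, macrophage and adipocyte scores (SD over analysed arrays), with 1 point per array, Eif2s3y-low in blue and Eif2s3y-high in orange. Hoxd4 falls with the macrophage score (r = -0.74 and -0.70) and Hoxc6 rises with the adipocyte score (0.65 and 0.80), and in the first panel 16 orange points lie above -2.

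The other scores had few members. With the steroidogenic score, led by Hsd3b1 and Cyp11a1, Hoxb6, Hoxd4, Hoxd9 and Hoxd10 rose, against 1.94% of probes. With the brown fat score, led by Ucp1 and Prdm16, the posterior genes Hoxc10 (0.22 and 0.52) and Hoxa10 (0.32 and 0.34) rose, against 0.691%. With the stromal and preadipocyte score, led by Dlk1 and Bmp7, Hoxb3, Hoxb6 and Hoxb7 fell, against 4.89%, and Hoxb2 was called in opposite ways (0.35 and -0.33). Hoxb5, Hoxc8 and Hoxd4 fell with the B cell score, against 7.11%, and Hoxb5 and Hoxd4 with the T cell score, against 6.41%. With the B cell score 2 other members were called in opposite ways. The B cell list was led by Cd22 and Cd79b and the T cell list by Cd3g and Cd3d. No member was called in both sets with the skeletal muscle (led by Tnnc2 and Atp2a1), exocrine pancreas (Cpb1 and Prss1, the only genes measured) or kidney score (Slc34a1 and Cdh16), with Ucp1 or with the mouse number, where 0.412% of probes rose and 0.0245% fell (limma). At an unadjusted p under 0.05 in both sets there were 5 members with the exocrine pancreas score, 4 with the kidney score, 1 with Ucp1 and 0 with the others.

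Single genes of fat were then taken as regressors. Over all 247 arrays Ucp1 had 15 members higher and 3 lower, against 21.3% and 23.4% of probes, and Hoxa10, Hoxc10 and Hoxa11 were the closest to it. Within the Eif2s3y-low set no member was called by limma, where 2.11% of probes rose and 1.67% fell, and 6 members rose at an unadjusted p under 0.05. Within the Eif2s3y-high set Hoxc10 rose (r = 0.33, adjusted p = 0.039) and Hoxb5 fell (-0.40, adjusted p = 0.0072, limma), against 0.502% and 1.75% of probes. Hoxa10 had r of 0.13 and 0.30 with Ucp1 within the sets and Hoxa11 0.19 and 0.20, and neither was called in either set.

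Lep, which encodes the hormone leptin, had 3 members higher (Hoxb3, Hoxb13 and Hoxd1) and 14 lower over all arrays, against 32.5% and 27.6% of probes. In both sets Hoxb3 rose (0.28 and 0.38, against 15.1% of probes called) and Hoxa11 (-0.43 and -0.23) and Hoxd12 (-0.19 and -0.29) fell, against 10.3%. In the Eif2s3y-low set 3 members rose with Lep and 17 fell, against 31.9% and 28.6% of probes. In the Eif2s3y-high set Hoxb3 and Hoxc9 rose and Hoxa11 and Hoxd12 fell, against 22.7% and 16.8%, and the difference between the sets was not tested. The mouse number had 9 members lower and 1 higher over all arrays, against 6.6% and 5.71% of probes. Within the sets Hoxc6 fell in Eif2s3y-low arrays (-0.31), where 1.17% of probes rose and 2.43% fell. Hoxa5 rose in Eif2s3y-high arrays (0.45), where 0.083% rose and 0.162% fell, and no other member was called.

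The most variable member of each region of the clusters served as an anchor to look at genes outside them: Hoxc4 for the anterior, Hoxc8 for the central and Hoxa11 for the posterior genes. Called in both sets were 16.8% of probes higher and 13.3% lower with Hoxc4, 14.9% and 14.5% with Hoxc8, and 3.37% and 2.63% with Hoxa11. Over all arrays together the shares for Hoxa11 were 24% and 29.2%.

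Hoxc4 was followed most closely by Klf16, a zinc finger transcription factor (0.83 and 0.73), and by Cnot11, Tex261, KIAA0556, Herpud2, Pitpnb, Atp6v0a2 and Cpeb1. Against it ran Slc4a1ap, the arginine methyltransferase Prmt1 (-0.70 and -0.74), Alg8 and the ribosomal gene Rpl10a. Hoxc8 was followed by Fgfrl1, a receptor-like gene of the FGF family (0.74 and 0.82), Hipk2, Abhd16a, Nadk, Npdc1, Vegfb, Selenow and Dtx2. Against it ran the splicing genes Cdc5l (-0.73 and -0.78) and Prpf31, with Nostrin and Utp3. None of the 12 genes named for one anchor was named for the other, but these are only the extremes of each fit. The share of probes called with both Hoxc4 and Hoxc8 was not counted, and some genes given below rose with both.

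Hoxa11 was followed by Osr2, a zinc finger gene (0.64 and 0.79), Pdlim3 (0.77 and 0.76), Pcp4 (0.72 and 0.87), Pitx1, the homeobox gene of the hindlimb (0.44 and 0.45), Nrn1, Bves and the smooth muscle genes Cnn1 (0.65 and 0.80) and Actg2 (0.67 and 0.82). The most negative genes over all arrays, Eif2s3y, Kdm5d, Sult1e1 and Ssty1, had r with Hoxa11 between -0.23 and 0.02 within the sets, and Eif2s3y itself -0.06 and -0.10. Their relation to Hoxa11 over all arrays lay mostly between the sets.

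Of the Hox cofactors and regulators, 25 of 32 were measured. Called in both sets were 7 higher and 3 lower with Hoxc4, 1 and 4 with Hoxc8, and 1 and none with Hoxa11. The shares of all probes were 16.8% and 13.3%, 14.9% and 14.5%, and 3.37% and 2.63%. The list counts were not tested against these shares. The cofactor Meis2 followed Hoxa11 (0.72 and 0.42). Wdr5, a subunit of complexes that methylate histone H3 at active genes, followed Hoxc4 (0.67 and 0.53). Ezh2, an enzyme of Polycomb repression, ran against Hoxc8 (-0.62 and -0.58). Polycomb genes of the list went both ways with Hoxc4. Ring1 (0.67 and 0.39), Bmi1 (0.56 and 0.30) and Ezh1 (0.44 and 0.23) rose in both sets. Ezh2 (-0.31 and -0.33) and Cbx2 (-0.46 and -0.35) fell. Median r of the list lay between -0.03 and 0.25, and that of all probes between -0.07 and 0.03.

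Of the positional genes of fat depots, 27 of 32 were measured. Called in both sets were 7 higher and 1 lower with Hoxc4, 6 and 1 with Hoxc8, and 6 and none with Hoxa11. Of all probes it was 16.8% and 13.3%, 14.9% and 14.5%, and 3.37% and 2.63%. The genes higher with Hoxa11 were Nr2f1, Nr2f2, Pitx1, Tcf21, Tfap2b and Osr2. Tbx5, Shox2, Irx3, Emx2 and Foxc2 were higher with both Hoxc4 and Hoxc8, and Epsti1 was lower with both. Irx3 had r of 0.81 and 0.72 with Hoxc4 and of 0.60 and 0.65 with Hoxc8. Tbx18 and Osr1 were higher with Hoxc4 only, and Irx5 with Hoxc8 only. Wt1, a gene of mesothelium and visceral fat, had r of 0.62 with Hoxa11 in the Eif2s3y-low set and 0.17 in the other, where it was not called. Of the genes that flank the clusters, 15 of 26 were measured, and 3, 3 and 2 rose in both sets with the anchors in that order, while 3 fell with Hoxc8. The same shares of all probes apply, and such small counts were not tested against them. Nfe2l1, which flanks cluster B, followed Hoxc4 (0.54 and 0.41), as did Hnrnpa1, which flanks cluster C (0.63 and 0.42), and Cbx1, near cluster B, ran against Hoxc8 (-0.46 and -0.59).

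The correlations among Hox genes were also computed with the set and the smooth muscle and epithelium scores held as covariates, an alternative chosen after the values were seen. Hoxa10 and Hoxa11 then had r of 0.75, Hoxb5 and Hoxd4 0.81, Hoxa10 and Hoxc10 0.49 and Hoxa11 and Hoxc10 0.44. Hoxa11 and Hoxd10 had 0.15 and were no longer called (adjusted p = 0.055, limma). RefSeq lists antisense genes beside Hoxa11, Hoxb3 and Hoxd3, and no source used here gives the strand that each probe reads, so those levels may include antisense RNA.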

How the data were processed

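RNA of 295 mice was measured on 1 array of 2 colours each, with the mouse in Cy3 and the pool in Cy5, per the labels. The values used were ratios deposited by the authors and were read here as log10. Their scale, centring and direction are not stated in the sources used here. Deposited values ended at -2 and 2, and the mean of the analysed arrays lay between -0.00991 and 0.0178. No source used here gives the correction of the intensities.

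Values were multiplied by 3.32 to give log2. Probes measured on at least 90% of arrays were kept (22894 of 23387), and gaps were filled with the probe's mean in the fits. The Eif2s3y sets were split at -2 on the log2 scale. Each regressor was standardised and fitted to all probes with limma 3.58.1 in R 4.3.3 (lmFit and eBayes), with Benjamini-Hochberg adjustment over all probes and a threshold of 0.05. In the fit of a list's score the list's own genes were left out. Permutation tests used 100000 resamples. On simulated data with 22894 probes on the Hoxa11 level, slopes of 0.25 SD were recovered in 61% and of 0.5 SD in 100%, with 3 false calls. The simulated probes varied independently of one another, unlike the measured ones. The count of false calls therefore does not carry over to the measured data. Tables were handled with pandas 2.3.3 on Python 3.11.15, permutations with NumPy 2.4.6 and SciPy 1.17.1, and plots with matplotlib 3.10.9.

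Named were all 29 members, for each anchor the 8 most positive and 4 most negative genes outside the clusters with an adjusted p under 0.05, the 3 members of each pathway list with the largest r to an anchor, and the 2 most variable members of each score. Members, lists and tests were chosen with earlier results of these data known. Alternatives were other filters, ranks, covariates, array sets and 3 ranges of the mouse number (83, 82 and 82 mice). The number of arrays limits the precision, and p-values measure the spread between single arrays.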

Additional observations from a re-analysis of the deposited data

How the results depend on the processing

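Separate fits on fewer arrays gave other counts, and whether they call the same pairs was not counted. Hox-to-Hox calls numbered 547 over all analysed arrays, 295 in the fit of Eif2s3y-high arrays and 339 in that of the upper range of mouse numbers (of 3 ranges). The 145 calls between anterior and posterior genes became 79 in Eif2s3y-high arrays, 95 and 86 in the lower and upper ranges, 91 with groups 1 to 3 as anterior and 85 with only members of SD above the median of all probes. The 126 calls within clusters became 74 in Eif2s3y-high arrays, 80 in the upper range and 83 with the SD limit. For Lep the 17 calls became 4 in Eif2s3y-high arrays, 8 in the lower and 1 in the middle range. For Ucp1 the 18 calls became 0 in Eif2s3y-low and 2 in Eif2s3y-high arrays, 1 with the Eif2s3y set as covariate, 1 with the 2 scores added, and 10 and 11 in the middle and upper ranges. For mouse number the 10 calls became 4 with the first principal component as covariate, 2 with the set, 2 with the set and scores, and 1 in each set. The 276 calls with scores became 144 in Eif2s3y-high arrays and 164, 170 and 146 in the 3 ranges. Probes called with Hoxa11 numbered 12169 in all, 2916 in Eif2s3y-high arrays and 5375 and 6084 in the lower and upper ranges. The ranges and sets hold fewer arrays.

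The r of Hoxb5 with the adipocyte score turned to -0.0792 when the 48 arrays left out were added, and that of Hoxb2 with smooth muscle, over both sets, to -0.0531 in the middle range. The cause was not tested. In 87 further comparisons of counts with an alternative the count stayed within 1.5 times, and 31 moved beyond it, as given above. Of the comparisons of single r, 179 kept direction and side of the threshold and 9 lost the call, 6 of these where arrays were left out by their Hoxa11 level. The fit with the smooth muscle and epithelium scores as covariates was not run for the scores themselves. No paired analysis was possible because the mice form 1 group. Arrays were not repeated, so low correlations of members with a small SD, such as Hoxd13, may be limited by signal over background, which the files do not give.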
